A study of Mus musculus with 6 samples.

Results

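The genes described here are 100 mouse genes whose mRNA was lower at day 2 of erythroid differentiation than both before it and at day 4. They were chosen on their measured levels, out of 23896 genes with 1 transcript each. A gene qualified if both of its day 2 libraries lay below all of its day 0 and day 4 libraries, which 618 genes did. These were ranked by a score, the smaller of the fall from day 0 to day 2 and of the rise from day 2 to day 4 in log2(mean CPM + 1), and the first 100 were kept. CPM is a transcript's counts divided by the library's total of transcript counts and scaled to 1e6. The median score was 0.42 and the lowest 0.33. The day 2 fall and the day 4 rise of these genes are therefore a description, and where calls for these steps are printed below they carry no weight as a test.

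The libraries were made from murine erythroleukemia (MEL) cells, a transformed line of early red cell precursors that starts to make hemoglobin when dimethyl sulfoxide (DMSO) is added. Cells were harvested untreated (day 0) and after 2 or 4 days in 2% DMSO, with 2 biological replicates per day, and their mRNA was sequenced with a stranded, poly(A)-selecting kit. The labels name no other treatment or allele, and all groups share the 1 cell line. There was no culture kept without DMSO to days 2 and 4, so time in culture and DMSO cannot be told apart.

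During terminal differentiation red cell precursors stop dividing, condense their nuclei and put most of their RNA into globin and the enzymes and membrane proteins of the red cell. Genes needed for growth mostly decline, while red cell genes mostly climb, so a level that falls and then comes back departs from both courses. The genes followed here come from several systems that these cells are known to use: sterol uptake and synthesis, which supply the cell membrane; histones, which package DNA; transcription factors of the red cell and platelet lineages; and proteins that link integrins and the actin cytoskeleton.

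The promoters below are shown because histone and sterol genes recur among the members, because 3 of them have some of the highest scores, and because H2bc23 and H4bc24 share 1 sequence. Each is the 250 bases before the start site in RefSeq (GRCm38.p6), read 5′ to 3′ on the strand of the gene. H2bc8, Cmss1 and Fermt3 rank 2, 4 and 5 by score, and the sequence of H2bc23 is also that of H4bc24. In the first set, capitals mark TATAAA and CCAAT in H2bc8, TGACGT in Cmss1 (the core of the element bound by CREB and ATF factors), TCACCCCA in Fermt3 (the first bases of a sterol response element), and CCAAT and TGACGT in H2bc23, on either strand. H2bc8 lies at chr13:23571150-23571399 (+ strand), Cmss1 at chr16:57606868-57607117 (- strand), Fermt3 at chr19:7019470-7019719 (- strand) and H2bc23 at chr13:21810200-21810449 (- strand).
H2bc8: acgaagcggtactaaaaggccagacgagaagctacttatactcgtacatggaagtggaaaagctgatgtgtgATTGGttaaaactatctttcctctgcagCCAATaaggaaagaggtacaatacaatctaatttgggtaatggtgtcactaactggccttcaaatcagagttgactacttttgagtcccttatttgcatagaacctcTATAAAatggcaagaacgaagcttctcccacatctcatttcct
Cmss1: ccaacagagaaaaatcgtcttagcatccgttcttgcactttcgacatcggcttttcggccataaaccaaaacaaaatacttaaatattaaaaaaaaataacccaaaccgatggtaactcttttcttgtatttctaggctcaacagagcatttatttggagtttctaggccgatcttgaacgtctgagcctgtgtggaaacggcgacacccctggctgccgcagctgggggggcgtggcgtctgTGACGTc
Fermt3: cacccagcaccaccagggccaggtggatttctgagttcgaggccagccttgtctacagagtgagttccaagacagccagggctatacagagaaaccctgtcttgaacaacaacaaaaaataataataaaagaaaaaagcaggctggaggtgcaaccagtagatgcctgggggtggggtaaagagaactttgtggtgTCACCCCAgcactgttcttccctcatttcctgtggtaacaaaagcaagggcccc
H2bc23: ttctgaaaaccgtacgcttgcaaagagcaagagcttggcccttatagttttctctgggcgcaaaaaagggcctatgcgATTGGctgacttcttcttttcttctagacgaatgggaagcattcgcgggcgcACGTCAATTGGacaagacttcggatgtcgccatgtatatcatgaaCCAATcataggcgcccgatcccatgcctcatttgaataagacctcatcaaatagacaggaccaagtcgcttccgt

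The second set holds 3 of the sterol genes among the members, chosen after their values were seen. Capitals mark CCAAT, the GC box GGGCGG and, in Srebf2, the sterol letters TCACCCCA, on either strand. Srebf2 lies at chr15:82147019-82147268 (+ strand), Msmo1 at chr8:64733579-64733828 (- strand) and Mvd at chr8:122443423-122443672 (- strand).
Srebf2: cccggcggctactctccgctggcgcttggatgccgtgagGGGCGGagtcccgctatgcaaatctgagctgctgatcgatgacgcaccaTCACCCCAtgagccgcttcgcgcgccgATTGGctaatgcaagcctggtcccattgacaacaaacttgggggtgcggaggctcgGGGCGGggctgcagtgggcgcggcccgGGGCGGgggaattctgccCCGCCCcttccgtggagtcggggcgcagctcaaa
Msmo1: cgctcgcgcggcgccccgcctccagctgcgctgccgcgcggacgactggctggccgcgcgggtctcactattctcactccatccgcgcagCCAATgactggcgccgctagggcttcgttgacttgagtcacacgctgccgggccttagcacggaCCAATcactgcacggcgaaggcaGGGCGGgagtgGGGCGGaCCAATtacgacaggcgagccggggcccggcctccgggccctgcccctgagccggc
Mvd: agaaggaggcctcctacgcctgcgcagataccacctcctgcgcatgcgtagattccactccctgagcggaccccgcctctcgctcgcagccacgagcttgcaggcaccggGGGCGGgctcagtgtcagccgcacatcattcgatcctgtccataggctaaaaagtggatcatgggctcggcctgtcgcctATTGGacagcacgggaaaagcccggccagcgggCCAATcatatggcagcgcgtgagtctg

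All 3 sterol promoters held CCAAT and GGGCGG, and in Srebf2 the letters TCACCCCA began 162 bases before the start site. In H2bc8, TATAAA began 43 bases before the start site and CCAAT was present on both strands. Over the window of 300 bases in the RefSeq table (250 before and 50 after the start site), 77 of the 100 members matched, with 99 promoters. CCAAT stood in 41.4% of these promoters and in 38.5% of the 12235 promoters of the genes tested. TGACGT stood in 18.2% against 11.7%, and CCACCC, the CACCC box of KLF factors, in 24.2% against 36.9%. GGGCGG stood in 54.5% against 62.4%, and TATAAA in 7.07% against 7.0%. TCACCCCA, searched after the values were seen, stood in 4.04% against 1.49%, in the members Fermt3, Lgals9, Plek and Srebf2. The longer TCACCCCAC stood in none of the members' promoters and in 0.597% of those tested. Over all 32851 promoters of the table, the shares were 37.4% for CCAAT, 7.51% for TGACGT, 31.5% for CCACCC, 35.7% for GGGCGG, 13.6% for TATAAA, 1.56% for TCACCCCA and 0.551% for TCACCCCAC. These are matches of letters on both strands, and matches of different motifs can overlap. A member can have more than 1 promoter, and the sequence shared by H2bc23 and H4bc24 is counted for both in CCAAT and TGACGT. Further motifs were searched, with shares above and below those of the genes tested. Among them were GATAAG (7.07% against 5.49%) and CCGGAAG (16.2% against 18.1%).

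The libraries held between 35294930 and 53899476 transcript counts, and 50.5% to 58.4% of their reads fell on no transcript. Most of the red cell defining markers rose. Hba-a1, an alpha globin gene, was at 120.1 and 113 CPM before DMSO, 2399 and 2964 at day 2 and 10015 and 11369 at day 4, and Alas2, the first enzyme of heme synthesis in red cells, rose from 82.7 and 59.7 to 1353 and 1498 CPM between day 0 and day 4. Klf1 did not rise, at 181 and 285, then 170.1 and 189.8, then 177 and 169.7 CPM at days 0, 2 and 4. Gata1 went from 189 and 187 at day 0 to 267 and 261 CPM at day 4. Of the 50 red cell genes tested, 34 were higher and 7 lower at day 2 than at day 0. The summed level of the list was 5263 to 5328 CPM before DMSO and 31863 to 34020.3 CPM by day 4. The mast cell and basophil markers Cpa3, Ms4a2 and Fcer1a had 60 to 150 counts at day 0 and at most 7 later. Mcpt8 had at most 2 counts in any library. Of the lymphoid defining markers, Cd3e and Rag1 had at most 2 counts in any library and Cd79a at most 8. Of the stromal ones, Col3a1 and Dcn had 0 counts in every library, while Col1a1 had 63 and 140 counts at day 0 and 34 to 50 later, and Pdgfra 29 and 21 and then at most 7. The summed stromal list was at 54.7 and 46.6 CPM at day 0, 6.78 and 6.58 at day 2 and 3.71 and 3.13 at day 4. In bulk RNA, fewer cells that make a transcript and less of it per cell cannot be told apart.

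At day 2 the members stood at a median of 61.4% of their day 0 level (range 18.5% to 78.1%), and at day 4 at 92.8% (24.4% to 142%). The summed level of the members, with near-identical pairs counted once, was 5974 and 5805 CPM at day 0, 2987 and 3158 at day 2 and 4472 and 4669 at day 4. The fall to day 2 was below 50% of the day 0 level in 23 members. Of the amount lost by day 2, the median member regained 82.4% by day 4, and the range from 6.16% to 239% was wide, so the set holds both genes that came fully back and genes that stayed low. The plot of both steps shows that the score admitted deep falls with a small return (Aldoa, Plek) beside shallower falls with a large return (Dlgap4).

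**Figure D1:**
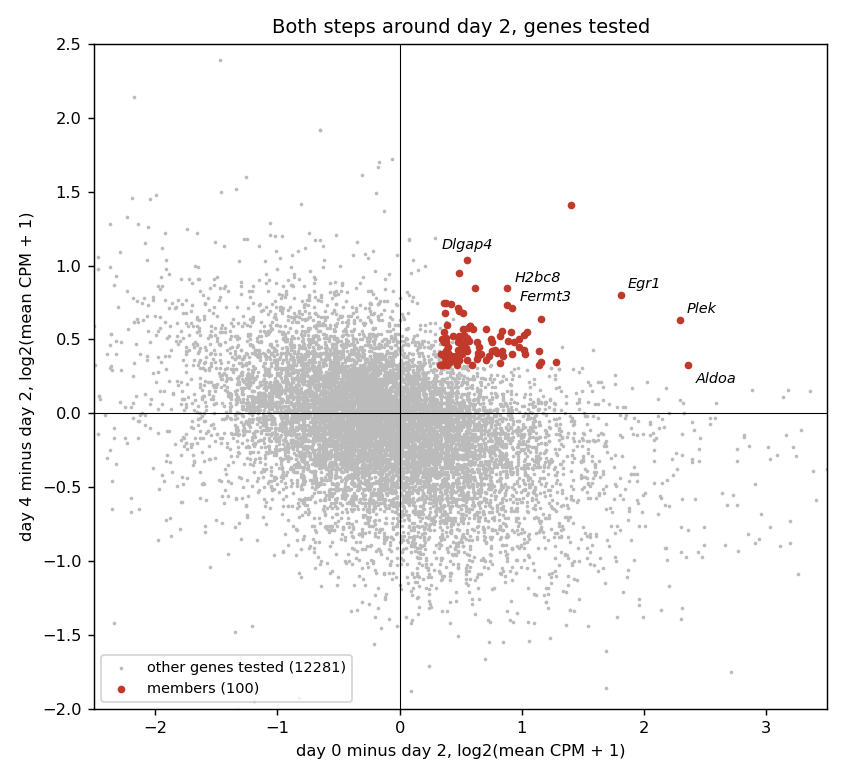
Fall to day 2 and rise to day 4 of each gene tested, as differences of log2(mean CPM + 1): day 0 minus day 2 (horizontal) and day 4 minus day 2 (vertical). The 100 members (red) lie in the upper right corner, with Aldoa and Plek far to the right and Dlgap4 near the top. Other genes with both steps above the lowest score did not meet the order of libraries. The 12281 other genes tested are grey, and 79 genes lie outside the axes.

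In a model over all 6 libraries (edgeR, quasi-likelihood, adjusted p below 0.05 over 18351 transcripts), 100 of the 100 members were called lower at day 2 than at day 0, where 31.5% of the 12381 genes tested were. At day 4, 91 were called higher than at day 2, against 14.0% of the genes tested, and the same 91 were called at both steps, against 1.68%. The 9 whose rise was not called were Aldoa, Atf6b, Bcl2l15, Dynlrb1, H2-T24, H2bu2, Mir7654, Nmnat1 and 2300009A05Rik. The order of the libraries that the rule requires was met by 4.29% of the genes tested. The rule chose the members on these same values, so these calls only describe the members and nothing is read from them. The number called at both steps was 16 without day 2 replicate 1 (0.137% of the genes tested), 38 without day 2 replicate 2 (0.444%) and 35 without day 4 replicate 2 (0.404%).

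The rule set no direction for day 4 against day 0, but its score was built from the same libraries and so shaped this contrast too. The calls below sort the members and are no independent test of them. At day 4, 2 members, Dlgap4 among them, were called higher than at day 0, as were 35.5% of the genes tested. There were 35 members called lower, close to the 36.4% of the genes tested, and 63 were not called. The members' median log2 fold change from day 0 to day 4 was -0.22 (range -2.14 to 0.39), against -0.02 over the genes tested. Scaling by total counts alone shifted the median of the genes tested from day 0 to day 4 to 0.10 and that of the members to -0.11. The 63 members not called stood at a median of 69.3% of day 0 at day 2 and 100% at day 4. The 35 called lower stood at a median of 51.0% at day 2 and 72.1% at day 4, regaining between 6.16% and 71.0% of the loss. Since every member had to rise from day 2, a member that ended lower had to have fallen further, so this difference follows from the choice of members. Without day 4 replicate 1, 23 members were called lower, as were 33.1% of the genes tested. Both day 4 libraries lay above both day 0 libraries in 14 members, against 46.5% of the genes tested, and below them in 38, against 38.3%, and the remaining 48 members overlapped.

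**Figure D2:**
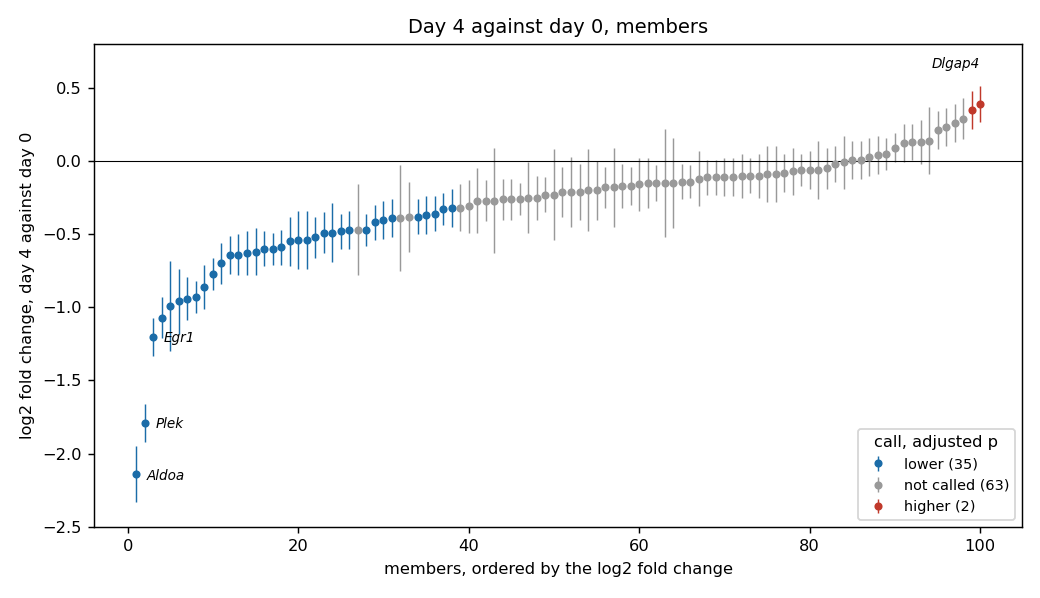
Log2 fold change of day 4 against day 0 (vertical, edgeR with TMM factors) for the 100 members in rising order (horizontal); bars are standard errors. Blue points are the 35 called lower, red the 2 called higher, with Dlgap4 the highest, and grey the 63 not called, and the lowest points are Aldoa, Plek and Egr1.

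**Figure D3:**
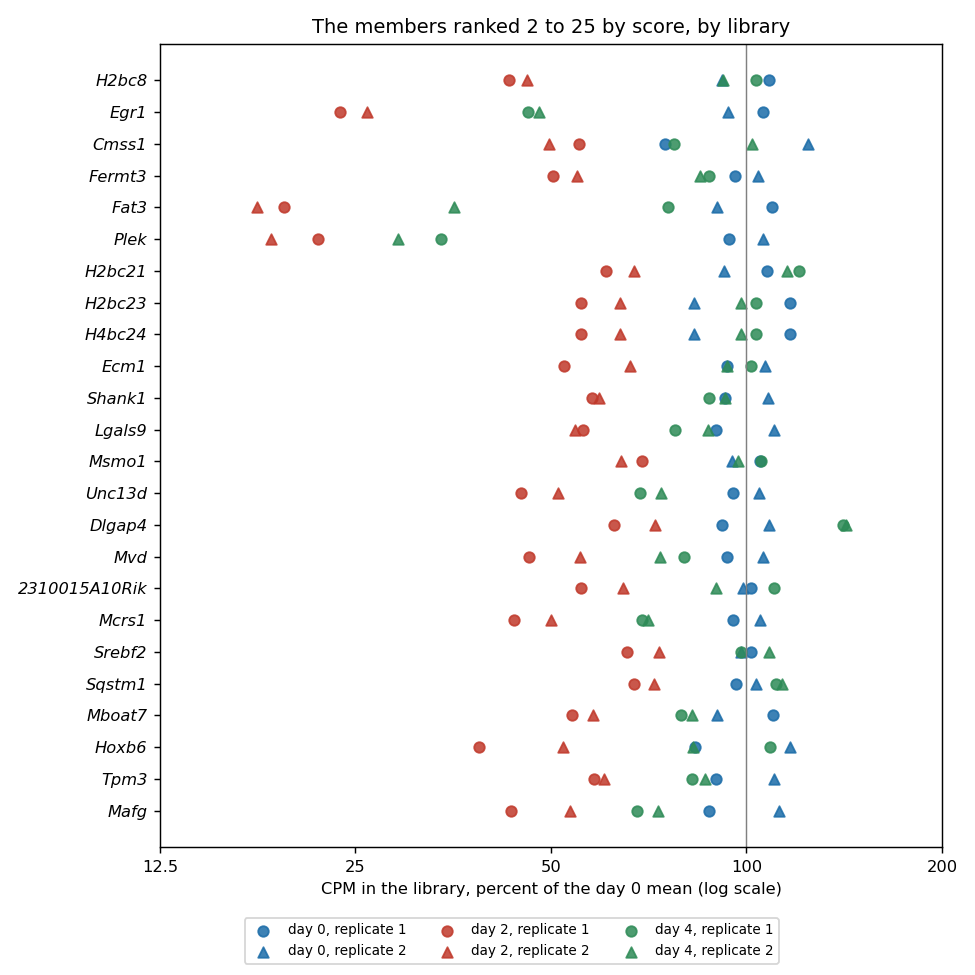
CPM in each library as a percent of the gene's day 0 mean (log axis) for the 24 members ranked 2 to 25 by score, circles for replicate 1 and triangles for replicate 2. By the rule the red day 2 points lie left of all others; the green day 4 points reach the blue day 0 points in H2bc8 and Msmo1 and stay well short of them in Egr1, Fat3 and Plek.

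Genes of cholesterol uptake and synthesis gave 4 members, of which 3 are described. Srebf2, the transcription factor that switches on sterol genes, was at 109.7 and 106 CPM at day 0, then 70.6 and 79.2 at day 2, then 106 and 117 at day 4; values below follow the same order of days. Msmo1, an oxidase of the later sterol pathway, was at 26.0 and 23.6, then 17.1 and 15.9, then 26.1 and 24.1 CPM. Both ended with day 4 libraries overlapping those of day 0. Mvd, which makes isopentenyl diphosphate, went from 18.4 and 20.9 to 9.12 and 10.9 and back to 15.8 and 14.5 CPM. This was short of day 0 (log2 fold change -0.49, SE 0.14, edgeR adjusted p = 0.00715). The transcript counted for Mvd is a non-coding RefSeq entry of this gene.

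The list these genes belong to holds 23 genes tested, of which 14 were lower at day 2 than at day 0 and 6 were higher at day 4 than at day 2. The 5 that did both, 21.7% of the list against 1.68% of the genes tested, included Srebf2, Msmo1, Mvd and Lss, lanosterol synthase. Lss was at 59.1 and 46.9 CPM at day 0, 21.3 and 22.3 at day 2 and 29.6 and 24.7 at day 4, a partial return. The rest of the pathway took other courses. Fdps, farnesyl diphosphate synthase, fell from 45.8 and 65.9 to 14.3 and 14.1 CPM and was at 17.3 and 15.0 at day 4. Insig1, which holds the sterol-sensing machinery in the endoplasmic reticulum, had means of 51.3, 58.2 and 91.5 CPM at days 0, 2 and 4 (SD 9.13, 0.276 and 12.8, n = 2). Over the list the median log2 fold change was -0.47 to day 2 and 0.18 from day 2 to day 4, against 0.01 and -0.00 over the genes tested. Of the 16 genes tested of fatty acid synthesis and LXR, the receptor for oxidised sterols, 8 were lower at day 2, 2 were higher at day 4 than at day 2, and none did both.

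**Figure D4:**
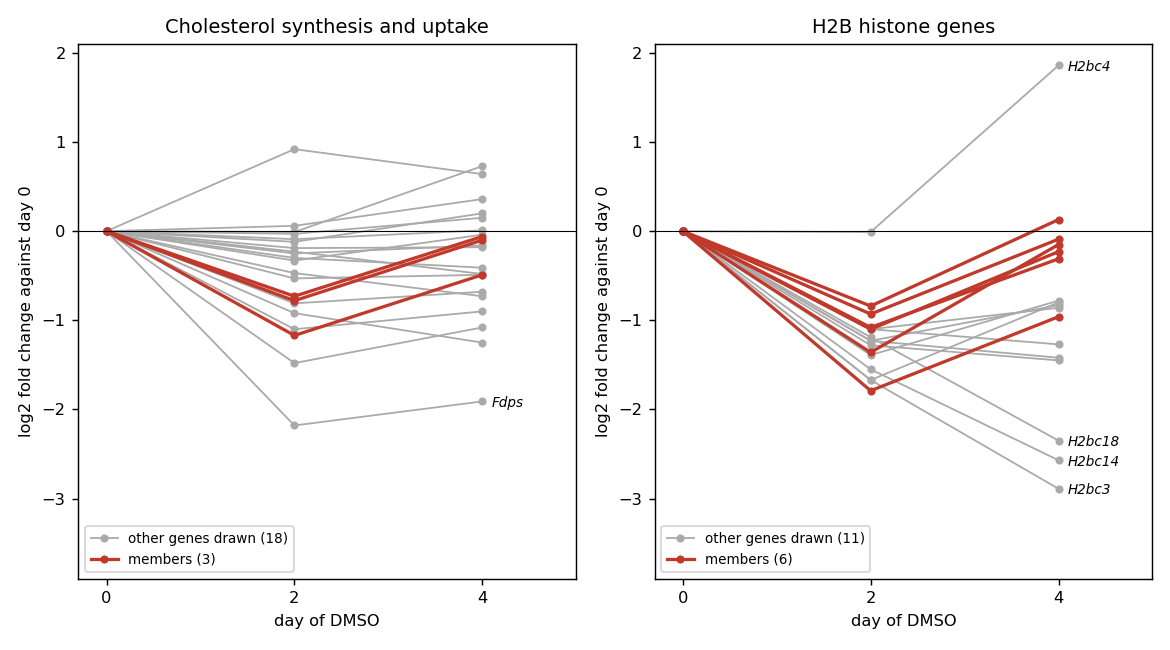
Log2 fold change against day 0 (vertical, edgeR) at days 0, 2 and 4 (horizontal) for 21 of the 23 genes of cholesterol synthesis and uptake (left) and 17 H2B histone genes (right), 1 line per gene. The 3 and 6 members (red) drop at day 2 and return in part or fully; Fdps ends lowest on the left, H2bc18, H2bc14 and H2bc3 end lowest on the right, and H2bc4 ends highest.

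Histone genes of the H2B family gave 6 members on the histone list. H2bc8 (NM_178196, chr13:23571400-23571863) was at 4.93 and 4.17 CPM at day 0, 1.96 and 2.09 at day 2 and 4.70 and 4.19 at day 4. H2bc21, the most abundant, was at 33.4 and 28.7, then 18.9 and 20.9, then 37.5 and 35.9 CPM. Both had day 4 levels not called different from day 0 (log2 fold change -0.15, SE 0.17 and 0.13, SE 0.12). H2bc6 went from 3.29 and 3.47 to 1.86 and 1.81 and back to 3.06 and 2.87 CPM, and H2bu2 from 1.68 and 1.02 to 0.535 and 0.872 and back to 1.36 and 1.12. H2bc9 returned only in part, from 3.27 and 2.86 to 0.841 and 1.18 and then 1.67 and 1.73 CPM (log2 fold change -0.96, SE 0.22, edgeR adjusted p = 0.00224). H2bc23 and H4bc24 were both at 5.46 and 3.88, then 2.60 and 2.98, then 4.84 and 4.58 CPM. Their counts were identical in all 6 libraries and their promoters are the same sequence, so they are counted reads of 1 locus or of both and are a single measurement here.

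The histone list was divided by family after the values were seen. Of 17 H2B genes tested, 16 were lower at day 2 than at day 0, as were 16 of 19 H2A, 12 of 14 H3, 6 of 12 H4 and 5 of 7 H1 genes. From day 2 to day 4, 6 H2B genes were higher and 3 lower. Among the listed H2A, H3 and H4 genes none was higher, and 14, 11 and 10 were lower, while 1 H1 gene was higher and 2 were lower. The median log2 fold change from day 2 to day 4 was 0.61 for H2B, -1.26 for H2A, -1.51 for H3, -1.19 for H4 and -0.53 for H1. The H2B gene H2bc4 did not fall at day 2 but was higher at day 4, at 9.03 and 8.52, then 9.40 and 10.5, then 38.1 and 31.0 CPM. Most histone mRNAs of dividing cells carry no poly(A) tail, and these libraries were poly(A)-selected, so the values cover the part of histone RNA that such a kit keeps. The list's name pattern left out H2aj and H2aw, which encode H2A histones. Both were members called higher at day 4 than at day 2 (log2 fold change 0.45 and 0.84). It also left out the member H4bc24 (0.83 for the same step). The counts and promoter under this name are those of the H2B gene H2bc23, so it gives no separate measurement of an H4 gene. The counts by family therefore hold for the listed genes only. H2aj went from 61.5 and 44.2 to 22.3 and 24.1 and then 32.5 and 27.3 CPM (log2 fold change of day 4 against day 0 -0.94, SE 0.15, edgeR adjusted p = 0.000199), and H2aw from 3.13 and 2.24 to 1.55 and 2.20 and then 3.37 and 3.02.

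Of the 50 red cell genes tested, 2 were members, Nfe2 among them. Nfe2, the larger subunit of the factor NF-E2 that acts on globin genes, was at 60.2 and 81.9, then 38.7 and 37.2, then 54.3 and 53.2 CPM. Its usual type of partner, the small Maf protein encoded by Mafg, was a member as well, at 18.3 and 23.5, then 9.07 and 11.2, then 14.2 and 15.3 CPM. Both stayed below day 0 at day 4 (log2 fold change -0.52, SE 0.14 for Nfe2 and -0.62, SE 0.16 for Mafg, edgeR adjusted p = 0.00652 and 0.00484). Gata2, a factor of progenitor cells that GATA1 replaces, was low throughout and came back, at 6.40 and 5.73, then 4.43 and 4.36, then 7.08 and 7.30 CPM. Of the 13 progenitor genes tested, 11 were lower at day 2 and Gata2 was the 1 that was then higher at day 4. Bcl2l1, the survival gene for Bcl-xL, was at 13.2 and 13.7, then 9.93 and 9.76, then 16.1 and 18.1 CPM. Its day 4 rise over day 0 was not called (log2 fold change 0.23, SE 0.13, edgeR adjusted p = 0.134), but was with scaling by total counts (0.34, adjusted p = 0.0322).

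Proteins of adhesion, secretion and signalling in blood cells were among the most abundant members per kilobase of transcript. Fermt3, or kindlin-3, which activates integrins, had 104 CPM per kb at day 0. It was at 257 and 279 CPM at day 0, 135 and 147 at day 2 and 235 and 227 at day 4, below every day 0 library (log2 fold change -0.33, SE 0.11, edgeR adjusted p = 0.0198). This call was lost with scaling by total counts (-0.21, adjusted p = 0.112) and without either day 4 library. Plek, pleckstrin, a protein kinase C substrate best known in platelets, fell from 266 and 300.4 to 62.0 and 52.5 and reached 95.7 and 82.3 CPM. It regained 14.1% of the loss (log2 fold change of day 4 against day 0 -1.79, SE 0.13, edgeR adjusted p = 5.37e-07). Unc13d, which primes secretory granules for release, went from 73.0 and 80.0 to 34.4 and 39.2 and then 52.4 and 56.6 CPM. Lgals9, a secreted galectin, went from 56.7 and 69.7 to 35.4 and 34.4 and then 49.0 and 55.2 CPM. Both were called lower at day 4 than at day 0 (log2 fold change -0.60, SE 0.12 and -0.39, SE 0.13), the latter not with scaling by total counts (-0.28), without day 0 replicate 2 (-0.23) or without day 4 replicate 1 (-0.29). Ncf4, a subunit of the phagocyte oxidase, dipped from 13.5 and 16.8 to 10.9 and 12.3 and was at 21.4 and 18.9 CPM at day 4. Its rise over day 0 was not called (log2 fold change 0.29, SE 0.14, edgeR adjusted p = 0.0913), but was with total counts (0.41, adjusted p = 0.0248) and without day 0 replicate 2 (0.46, adjusted p = 0.00902). Tpm3, a tropomyosin that stabilises actin filaments, went from 108 and 133 to 70.3 and 72.6 and then 99.3 and 104 CPM (log2 fold change of day 4 against day 0 -0.36, SE 0.12, edgeR adjusted p = 0.0207), a call lost with total counts (-0.24) and without day 0 replicate 2 (-0.20) or day 4 replicate 1 (-0.30).

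Plek stands on a list of 13 platelet-lineage genes tested, of which 8 were lower at day 2 and 3 were higher at day 4 than at day 2; Plek was the 1 that did both. The summed level of that list was 549 to 588 CPM before DMSO, 313 to 332 CPM on day 2 and 677 to 718 CPM on day 4. This sum does not stand for most of its genes. At day 4, 4 of the 13 were higher and 9 lower than at day 0, with a median log2 fold change of -1.96. Among its defining markers, Pf4 fell from 53.9 and 39.3 to 10.4 and 8.86 CPM at day 4, and Itga2b rose from 196 and 209 to 543 and 601. Ncf4 stands on the myeloid list, whose 19 genes tested summed to 1251 to 1301 CPM, then 871 to 972, then 1578 to 1756. Here too the sum differs from most genes. At day 4, 2 of the 19 were higher and 12 lower than at day 0, with a median log2 fold change of -1.13. Of the myeloid defining markers, Itgam and Elane had at most 3 counts in any library and Mpo at most 14. Csf1r had 51 and 55 counts at day 0, 8 and 26 at day 2 and 31 and 19 at day 4, lowest by mean at day 2 as the members were. Lyz2 was highest at day 2, with 18 and 13, then 72 and 60, then 17 and 10 counts. The part of such lists in the members' course was not tested.

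Members whose day 4 level stayed far below day 0 included several regulators. Egr1, an immediate early transcription factor that growth signals induce, was at 20.7 and 18.3 CPM at day 0, 4.61 and 5.08 at day 2 and 8.98 and 9.36 at day 4. It ended at 47.0% of day 0 (log2 fold change -1.20, SE 0.13, edgeR adjusted p = 1.2e-05). Of 33 immediate early and MAP kinase genes tested, 19 were lower at day 2 and 8 were higher at day 4 than at day 2, and only Egr1 and Ier3 did both. Cited2, which binds the coactivators CBP and p300, went from 51.1 and 51.0 to 19 and 22 and then 30.5 and 22.4 CPM. Aldoa, an aldolase of glycolysis, had the largest fall of all members and differed between the day 0 libraries, at 1249 and 794 CPM. It was at 202 and 195 at day 2 and 233 and 265 at day 4, so that 6.16% of the loss was regained, and its rise from day 2 was not called. Of 34 genes of glycolysis and the hypoxia response, 25 were lower at day 2, and P4ha1, a collagen prolyl hydroxylase, was the 1 then higher at day 4. Clic1, a chloride intracellular channel protein, went from 421 and 394 to 187 and 181 and then 238 and 224 CPM. Fat3, an atypical cadherin, went from 2.30 and 1.89 to 0.408 and 0.370, the deepest relative fall, and its day 4 libraries lay apart at 1.59 and 0.745 CPM. Its lower call at day 4 (log2 fold change -0.99, SE 0.31, edgeR adjusted p = 0.0136) was lost without day 4 replicate 2 (-0.54).

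Sqstm1, the autophagy receptor p62, came back to above its starting level by the mean, at 194 and 208 CPM at day 0, 135 and 145 at day 2 and 223 and 228 at day 4, but was not called at day 4 against day 0 (log2 fold change 0.05, SE 0.11, edgeR adjusted p = 0.695). Of 25 lysosome and autophagy genes tested, 7 were lower at day 2 and 9 were higher at day 4 than at day 2. The 3 that did both included Sqstm1 and Ctsa, which encodes a lysosomal protease. Cat, catalase, which breaks down hydrogen peroxide, was at 51.9 and 63.9, then 41.6 and 46.7, then 71.0 and 79.0 CPM. Both its day 4 libraries lay above day 0 without a call (log2 fold change 0.26, SE 0.13, edgeR adjusted p = 0.0977), but it was called higher with scaling by total counts (0.37, adjusted p = 0.0197) and without day 0 replicate 2 (0.42, adjusted p = 0.00468). Of 19 antioxidant genes tested, 12 were lower at day 2 and Cat was the 1 that then rose. Enzymes of phospholipid and inositol synthesis were present too. Isyna1, which makes inositol phosphate, went from 167 and 167 to 89.3 and 98.7 and then 116 and 122 CPM. Mboat7, which attaches arachidonic acid to phosphatidylinositol, went from 61.9 and 50.7 to 30.3 and 32.7 and then 44.6 and 46.4 CPM. Both ended lower than at day 0 (log2 fold change -0.60, SE 0.11 and -0.42, SE 0.12), the second not without day 4 replicate 1 (-0.37).

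Dlgap4, a scaffold protein first described at synapses, had the largest rise over day 0, at 37.8 and 44.6, then 25.8 and 29.8, then 58.0 and 58.7 CPM (log2 fold change 0.39, SE 0.12, edgeR adjusted p = 0.0161). Its call was lost without day 0 replicate 1 (0.25) and without either day 4 library (0.42 and 0.35). Shank1, another synaptic scaffold, went from 12.8 and 14.9 to 7.97 and 8.17 and then 12.1 and 12.8 CPM, and was called lower at day 4 only without day 0 replicate 1 (-0.39, edgeR adjusted p = 0.0209). Cmss1, a small ribosomal subunit protein homolog, differed between its day 0 libraries, at 18.6 and 30.9, then 13.7 and 12.3, then 19.2 and 25.3 CPM. Its day 4 and day 0 libraries overlapped, and without day 0 replicate 1 it was called lower (-0.60, edgeR adjusted p = 0.00244). Ecm1, a secreted matrix protein, went from 4.81 and 5.51 to 2.70 and 3.42 and then 5.24 and 4.82 CPM. Mcrs1, a nucleolar and chromatin protein, went from 21.0 and 23.1 to 9.65 and 11 and then 15.2 and 15.5 CPM. Hoxb6, a homeobox factor, was near 1 CPM, at 1.15 and 1.61, then 0.535 and 0.719, then 1.5 and 1.14. The lncRNA 2310015A10Rik went from 3.39 and 3.30 to 1.86 and 2.16 and then 3.68 and 3.0 CPM.

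Further abundant members were Raver1, an RNA-binding partner of the splicing factor PTB, at 295 and 373, then 206 and 218, then 289 and 291 CPM, and Cope, a subunit of the COPI vesicle coat, at 68.5 and 90.5, then 38.8 and 44.6, then 53.4 and 57.4. Dpm3, which anchors the enzyme that makes dolichol phosphate mannose, was at 36.6 and 33.5, then 23.5 and 25.1, then 32.2 and 36.2 CPM. Raver1 was called lower at day 4 (log2 fold change -0.32, SE 0.13, edgeR adjusted p = 0.0490), and this call was lost in each fit that left out a library other than day 0 replicate 1. Mitochondrial ribosomal proteins gave 2 members among 78 genes tested, of which 65 were lower at day 2 and 3 were higher at day 4 than at day 2. Mrpl38 went from 58.6 and 50.1 to 32.2 and 33.6 and then 43.0 and 42.1 CPM, and Mrpl41 from 25.5 and 25.1 to 21.2 and 16.9 and then 26.7 and 24.1. Zfp143, a zinc finger factor of small nuclear RNA genes, went from 20.3 and 21.8 to 12.7 and 11.9 and then 16.9 and 16.0 CPM. The S phase, mitosis, ribosome biogenesis, aminoacyl-tRNA synthetase and ATF4 target lists held no member. Of their genes tested, all 26 of ribosome biogenesis and all 20 synthetases were lower at day 2, and none in either list was higher at day 4 than at day 2.

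Of the members, 91 were protein coding, 6 were lncRNAs, 2 were microRNA genes and 1 was a transcribed pseudogene. The microRNA entries count reads over a hairpin and not mature microRNA. Mir21a was at 0.553 and 0.371, then 0.127 and 0.109, then 0.368 and 0.438 CPM, and Mir7654 at 1.52 and 3.06, then 1.25 and 0.980, then 1.90 and 1.73, called lower at day 4 than at day 0 without day 0 replicate 1 (-0.89, edgeR adjusted p = 0.00450). Mir21a lies within Vmp1 and Mir7654 within Arglu1. Mean levels were under 5 CPM in 25 members and at least 50 CPM in 24. The smallest total over the 6 libraries was 87 counts, and 1 value in 1 library was as low as 3 counts. Atp6v0c and its pseudogene Atp6v0c-ps2 differed by at most 0.149% in any library, so reads cannot be assigned to 1 of them, and counting such pairs once leaves 98 members. The span of 43 members overlapped another gene, against 48.0% of the genes tested. The median transcript was shorter than among the genes tested (2164 against 2777 bases) and its GC content higher (54.9% against 50.8%). Of the members, with the genes tested cut into 4 groups of equal size by GC content, 47 members were in the highest group and 15 in the lowest. The order of libraries that the rule requires was met by 6.93% of genes in the highest group and 1.44% in the lowest, and the part of GC content in it was not tested. Chromosome 17 held 10 members, 10.0% against 5.42% of the genes tested, and chromosome 11 held 12, 12.0% against 8.83%.

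The members ranked 98 to 100 were Mir21a (score 0.328), Aldoa (0.327) and Clic1 (0.326), and Slc35b1, U2af1l4 and Nab2, each at 0.325, were just outside. Nab2, a corepressor that binds EGR1, was at 20.2 and 23 CPM at day 0, 9.27 and 8.91 at day 2 and 12.2 and 11.1 at day 4.

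The same rule applied to the libraries of 1 replicate was read in the replicate that it had not used. Of 100 genes chosen in replicate 1, 82 had their day 2 library below both other days in replicate 2, where 9.28% of all genes tested did. Of 100 chosen in replicate 2, 78 did so in replicate 1, where 13.3% of all genes tested did. The median score was smaller where it was read than where it was chosen, 0.23 against 0.49 and 0.28 against 0.44, and was -0.45 and -0.37 over the genes tested. At 100 genes each, 65 of those chosen in replicate 1 and 57 of those chosen in replicate 2 were members. The rule for the members used both replicates, so this overlap was built in. The sets chosen in 1 replicate are not the members, and replicate numbers did not pair the samples. These counts are therefore a description and no test of the members.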

How the data were processed

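mRNA-seq of 6 MEL libraries was analysed from 1 count file per library. The authors trimmed reads with cutadapt, aligned them to mm10 with TopHat and made whole-number counts per RefSeq transcript, with HTSeq named in the submitters' processing notes. Its strand option and annotation release are not given in the sources used here, so reads of overlapping genes may not be separated. The deposited counts were used unchanged, with the 5 bookkeeping entries per library left out. Each gene was represented by the transcript highest in mean count, and 268 transcripts without a gene symbol were left out. Gene names, spans, lengths and promoters came from RefSeq (GRCm38.p6). The members and gene lists were chosen with earlier results of these data known.

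Transcripts that passed filterByExpr by day were tested with edgeR 4.0.16 in R 4.3.3 (TMM factors, quasi-likelihood, 1 mean per day, Benjamini-Hochberg, limit 0.05). SE is the standard error of the log2 fold change. CPM uses total transcript counts, so percentages of CPM and TMM-scaled fold changes differ. Over the genes tested, the median log2 fold change from day 0 to day 2 was 0.01 with TMM factors and 0.21 with total counts. Lists were described by counts and medians, with no set test, and 42 lists were used. Named genes were the 25 members highest in score, those on a list, the 10 highest per length, and the 8 largest rises (2 were called) and 8 largest falls at day 4 among those called. H2aw, the genes next to the score limit and list genes that are no members were named after their values were seen. Alternatives were DESeq2 1.42.0, other scaling, filters, pseudocounts, a replicate block and leaving out each library. The fit and the rule were checked on simulated counts with known answers. The study's methods call the replicates biological. Values of some genes are not reported here. Counting error is small at this depth except in the members under 5 CPM.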

Additional observations from a re-analysis of the deposited data

How the results depend on the processing

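The counts of members called rested on few libraries. Leaving out 1 library at a time, the members called higher at day 4 than at day 0 ranged from 0 to 4 (2 with all libraries), those called lower from 23 to 41 (35), those called at both steps from 16 to 96 (91), and the median log2 fold change from -0.28 to -0.21. With total counts alone as library sizes, 6 members were higher and the median was -0.11. A fit of only the days compared called 1 higher. With a further limit of 1 on the size of the log2 fold change, 0 were higher, 4 were lower and 8 were called at both steps. The rule kept 48 of its 100 members with a pseudocount of 0.1 CPM, since low genes then rank higher, and 57 to 86 when libraries were left out. With TMM-scaled library sizes 1168 genes met the order of libraries, all 100 members among them, of which 82 stayed in the first 100. The replicate block gave 3 higher, 36 lower, 89 called at both steps and a median of -0.21; replicate numbers did not pair the samples (correlations of replicate differences 0.0316 to 0.0791), and under the block Cat was called higher (0.26, edgeR adjusted p = 0.0415). DESeq2 called 2 higher, 34 lower and 85 at both steps. Of 611 alternative values of the named genes, 577 kept the call or its absence, 25 lost the call and 9 gained it. Small values that were not called could change sign with the scaling. Srebf2 was at -0.06 with TMM factors, while its mean CPM was 108 at day 0 and 112 at day 4. With 2 libraries per day and members under 5 CPM, small returns cannot be told from the spread.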
